A study of Mus musculus with 12 samples.

Results

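Described here are 10 genes of the SET1/MLL family of histone H3 lysine 4 (H3K4) methyltransferase complexes: the 6 catalytic subunits Kmt2a, Kmt2b, Kmt2c, Kmt2d, Setd1a and Setd1b, and 4 subunits that occur in some of these complexes only, Cxxc1, Wdr82, Hcfc1 and Men1. They were chosen by name from a table of 25117 gene symbols. All 10 passed the filter on low values (at least 1 TPM in at least 3 libraries), as did 12653 symbols in all. TPM, the unit of the table, is a relative abundance corrected for transcript length, so that levels can be compared between genes within a library.

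Polyadenylated RNA came from mouse embryonic fibroblasts (MEFs), and every library carried the genotype Rbbp5 (flox/flox); Rosa26 CRE (+/+), that is, floxed alleles of the targeted gene and a Cre recombinase at the ubiquitously active Rosa26 locus. Cells labelled RBBP5 KO had tamoxifen for 7 days and cells labelled wildtype had none, so tamoxifen, Cre activity and loss of RBBP5 cannot be told apart, and the KO cells were a treated population and not a clone. Each kind was then kept for 16 hours in full DMEM with 10% FBS or in EBSS, a salt solution with glucose but neither amino acids nor serum. The 4 groups (wildtype full medium, KO full medium, labelled wildtype EBSS, labelled KO EBSS) had 3 libraries each. The titles number the libraries of a group as brep 1 to 3, and the sources used here do not say whether these came from separate embryos or cultures, so p-values measure the spread between these libraries.

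MLL and SET1 enzymes add methyl groups to H3K4 at promoters and enhancers, and each works only weakly without a shared core of WDR5, RBBP5, ASH2L and DPY30. SETD1A and SETD1B, with CXXC1 (CFP1, which binds unmethylated CpG) and WDR82, are known for most of the bulk trimethylation at active promoters. KMT2A and KMT2B form complexes with menin, the product of Men1, and act at selected promoters, among them Hox genes. KMT2C and KMT2D are known for monomethylation at enhancers. HCFC1 (host cell factor) joins both SET1 and KMT2A/KMT2B complexes and tethers them to transcription factors.

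Promoter sequences are shown for the 4 members whose change in full medium kept its direction and its call in every setting tried: Hcfc1, Wdr82 and Kmt2a, which were lower in KO, and Men1, which was higher. Each line gives the 250 bases before the RefSeq start on GRCm38.p6, 5′ to 3′ on the gene's strand, with every CG dinucleotide (the letters that CXXC domains of CXXC1, KMT2A and KMT2B read when unmethylated) in capitals. The windows are chrX:73966358-73966607 on the minus strand for Hcfc1, chr9:106170679-106170928 on the plus strand for Wdr82, chr9:44881290-44881539 on the minus strand for Kmt2a and chr19:6334729-6334978 on the plus strand for Men1.
Hcfc1: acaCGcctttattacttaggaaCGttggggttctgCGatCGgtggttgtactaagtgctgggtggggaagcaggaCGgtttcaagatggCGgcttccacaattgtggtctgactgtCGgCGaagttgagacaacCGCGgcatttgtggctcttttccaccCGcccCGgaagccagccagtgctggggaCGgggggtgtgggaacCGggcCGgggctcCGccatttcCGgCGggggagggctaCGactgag
Wdr82: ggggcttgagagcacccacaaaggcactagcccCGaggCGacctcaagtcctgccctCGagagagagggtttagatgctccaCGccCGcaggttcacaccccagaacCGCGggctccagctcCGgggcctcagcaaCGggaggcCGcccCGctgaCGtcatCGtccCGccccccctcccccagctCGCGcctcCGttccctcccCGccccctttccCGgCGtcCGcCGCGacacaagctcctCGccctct
Kmt2a: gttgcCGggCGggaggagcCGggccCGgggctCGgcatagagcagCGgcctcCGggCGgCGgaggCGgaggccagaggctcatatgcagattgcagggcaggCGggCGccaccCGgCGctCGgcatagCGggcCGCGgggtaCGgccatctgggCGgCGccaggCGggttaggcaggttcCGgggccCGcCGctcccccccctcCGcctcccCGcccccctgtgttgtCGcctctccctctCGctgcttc
Men1: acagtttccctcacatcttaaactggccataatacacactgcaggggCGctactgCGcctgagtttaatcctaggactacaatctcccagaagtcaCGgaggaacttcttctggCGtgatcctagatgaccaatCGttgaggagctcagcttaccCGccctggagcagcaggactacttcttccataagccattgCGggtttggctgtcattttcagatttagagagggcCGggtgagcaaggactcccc
The Hcfc1 window held 19 CG, the Wdr82 window 24, the Kmt2a window 29 and the Men1 window 8, against a median of 6 over 32851 promoter windows of the same length. At least as many CG were in 19.7%, 12%, 6.78% and 43% of all windows, so the Men1 start shown is the poorest in CG of the 4. Men1 had 2 further RefSeq starts, with 10 and 9 CG. Kmt2c held 48 CG, matched by 0.186% of windows, Kmt2d 26 and Setd1a 25. Of the Setd1a window, 209 of the 250 bases lay in an annotated exon of Setd1a, so its CG are not all upstream of the transcript. Exons of the same gene also covered 7 bases of the Kmt2a window, 1 of the Wdr82 window and 34 and 60 of the further Men1 windows. Windows for Kmt2b, Setd1b and Cxxc1 were not used here. Of 2 exact motifs searched on both strands, which share no letters in these windows, CCGGAAG (ETS factors) was in the Hcfc1 window and in 6.91% of all windows. ACTACAA, part of the site of ZNF143 and THAP11, was in the Men1 window and in 2.81% of windows. The other 5 members with a window held neither.

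Libraries have to be described before the values. In full medium Rbbp5 ranged from 25.7 to 26.2 TPM in wildtype and from 7.47 to 9.34 TPM in KO. In EBSS it ranged from 11.8 to 14 TPM in the libraries labelled wildtype and from 23 to 31.9 TPM in those labelled KO. On the deposited scale its order in EBSS went against the labels. With median-of-ratios scaling, explained below, labelled KO EBSS was above labelled wildtype EBSS by a log2 change of only 0.079 (limma adjusted p = 0.56). Against wildtype full medium, labelled KO EBSS was then at 0.047 and labelled wildtype EBSS at −0.032. Rbbp5 was thus not low in labelled KO EBSS on either scale. Every comparison that includes an EBSS group, against full medium or in the interaction as well, thus rests on labels in doubt. In labelled wildtype EBSS, ribosomal protein genes held 30.3% to 33.3% of the TPM scale, against 15% to 19.1% in the other 9 libraries. Rn45s, the ribosomal RNA precursor, was at 1454 to 2105 TPM against 68.3 to 272 TPM, and the median tested gene at 10.1 to 10.5 TPM against 17.5 to 23 TPM. Its replicate 3 listed 1122 tested genes at 0, where the other 11 libraries listed 12 to 229. Fibroblast markers summed to 4210 to 7348 TPM over 10 genes, against 0.874 to 7.39 TPM for 5 endothelial, 16.9 to 76.6 TPM for 6 macrophage and 99.5 to 278 TPM for 5 epithelial markers. Macrophage markers summed to 60.3 to 65 TPM in KO full medium, with 4 of the 6 under 1 TPM, and to 16.9 to 17.3 TPM in wildtype full medium, with 5 of the 6 under 1 TPM. In the same order, epithelial markers summed to 243 to 278 and 158 to 172 TPM, fibroblast markers to 5684 to 5909 and 7196 to 7348 TPM, and endothelial markers to 0.874 to 1.18 and 3.31 to 3.57 TPM. In labelled wildtype EBSS the macrophage sum ranged from 17.9 to 76.6 TPM. Adgre1, a defining macrophage marker, was listed at 0 in wildtype full medium and in labelled KO EBSS. The part of these markers in the results below was not tested. A lower level of a transcript and fewer cells that carry it cannot be told apart in bulk RNA.

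In wildtype cells in full medium the subunits were more abundant than the enzymes. Cxxc1 was at 73.8 ± 2.58 TPM (mean ± SD, n = 3, here and below), Hcfc1 at 68.8 ± 3.95, Wdr82 at 62.3 ± 0.629 and Men1 at 56.1 ± 3.27 TPM. Of the enzymes Setd1a came first at 35.5 ± 1.9 TPM, then Kmt2b at 18.4 ± 0.701, Setd1b at 11.8 ± 0.542, Kmt2a at 11.6 ± 0.288, Kmt2d at 9.35 ± 0.124 and Kmt2c at 3.97 ± 0.0616 TPM. Cxxc1 and Hcfc1 overlapped between libraries (71.3 to 76.5 and 65.7 to 73.2 TPM), as did Setd1b and Kmt2a (11.4 to 12.4 and 11.3 to 11.9 TPM). For every other pair of neighbours in this order the ranges over the 3 libraries did not overlap. Within each library Cxxc1 was above Hcfc1, whereas the order of Setd1b and Kmt2a varied. Transcripts of the enzymes are long: the longest annotated one has 16470 bases for Kmt2a, 8469 for Kmt2b, 14967 for Kmt2c, 19823 for Kmt2d, 6487 for Setd1a and 8857 for Setd1b, against a median of 3055 over tested genes. Those of Cxxc1, Wdr82, Hcfc1 and Men1 have 2620, 3747, 8262 and 2975 bases.

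**Figure D1:**
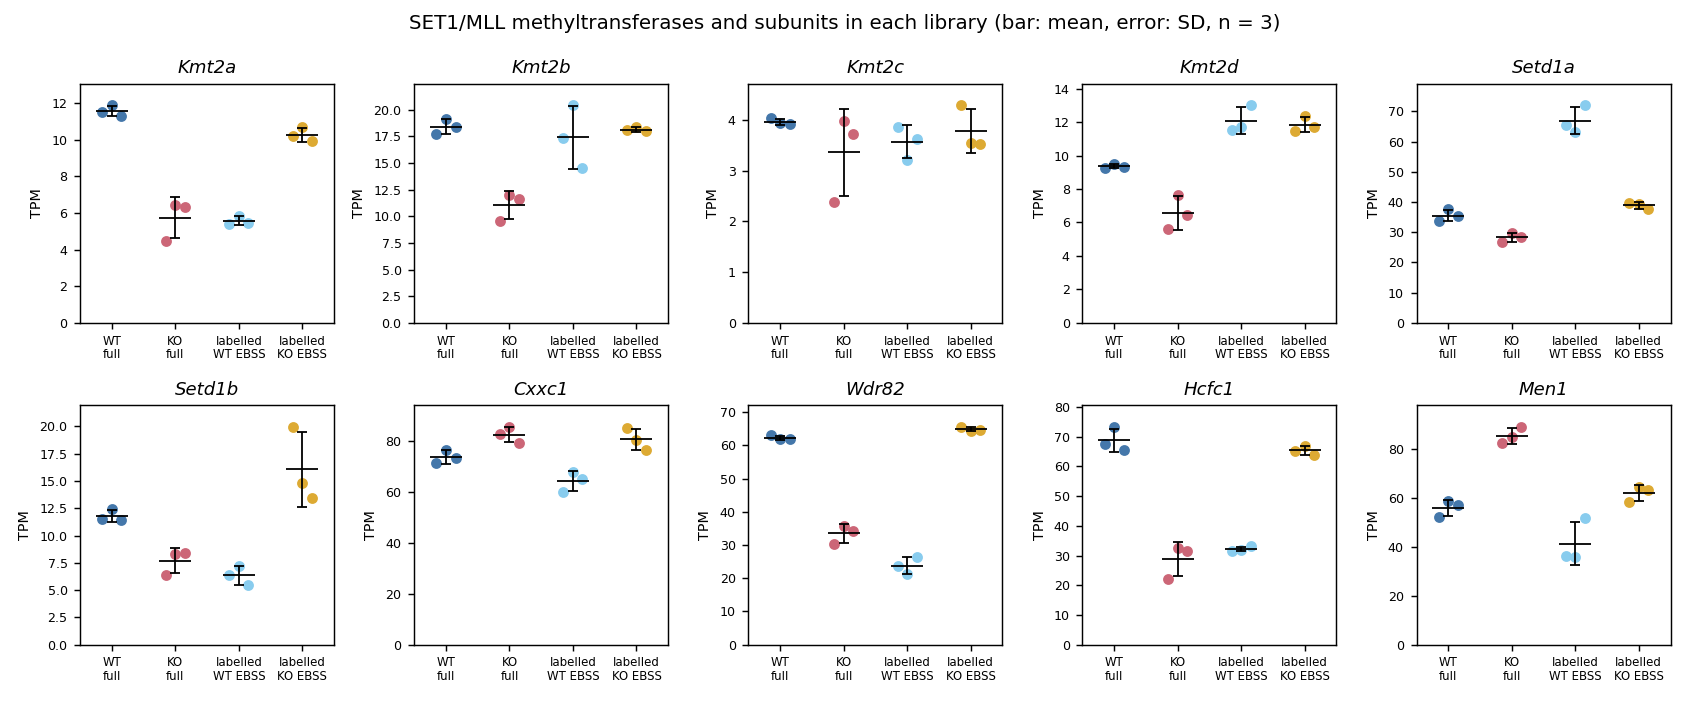
TPM of each of the 10 genes in every library, by group (WT is wildtype); points are libraries in the order of their replicate numbers, the long bar is the mean and the error bar the SD of 3. On this deposited scale Hcfc1, Wdr82 and Kmt2a are low in KO full medium and in labelled wildtype EBSS. Men1 is highest in KO full medium (82.6 to 89.1 TPM), and Setd1a is highest in labelled wildtype EBSS (63.3 to 72 TPM). With median-of-ratios scaling (not drawn) labelled wildtype EBSS lies near wildtype full medium for Hcfc1 (means 51.8 and 55.3) and Kmt2a (8.97 and 9.31).

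The first comparison asks how the family differs between KO and wildtype in fed cells. Lower levels in KO prevailed, largest in Hcfc1, Kmt2a and Wdr82, whereas Men1 was higher. Of the 10 members, 7 fell, 1 rose and 2 (Kmt2c and Cxxc1) did not pass. Over all tested genes limma called 55.9%, with 20.1% higher and 35.8% lower, and 80.2% of genes had groups that did not overlap, against 9 of the 10 members. The members' median log2 change was −0.51 and that of all genes −0.17. Here and below, changes are differences of log2(TPM + 1), which understates the change of low genes such as Kmt2c, and p-values are limma's, adjusted by the Benjamini-Hochberg method over all tested genes.

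Hcfc1 (ENSMUSG00000031386.14, chromosome X from 73942792 to 73966357) had 67.5, 73.2 and 65.7 TPM in wildtype and 22.3, 32.5 and 31.6 TPM in KO. Every wildtype library lay far above every KO library. Its log2 change was −1.25 (SE 0.12, limma adjusted p = 9.2e-06), the largest of the 10. Kmt2a, the founding MLL gene (ENSMUSG00000002028.13, chromosome 9 from 44803355 to 44881296), had 11.5, 11.9 and 11.3 TPM in wildtype and 4.47, 6.46 and 6.3 TPM in KO. No KO library reached the wildtype range, and replicate 1 was the lowest of the 3, as for Hcfc1. The change of Kmt2a was −0.91 (SE 0.13, limma adjusted p = 0.00014). Wdr82, the SET1 complex subunit that binds phosphorylated RNA polymerase II (ENSMUSG00000020257.13, chromosome 9 from 106170928 to 106191139), had 63, 62 and 61.8 TPM in wildtype and 30.4, 35.8 and 34.2 TPM in KO. The groups were far apart, with a change of −0.88 (SE 0.09, limma adjusted p = 1.3e-05).

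Men1 encodes menin, which links KMT2A and KMT2B to chromatin (ENSMUSG00000024947.17, chromosome 19 from 6334979 to 6340891). It had 52.5, 58.7 and 57.3 TPM in wildtype and 82.6, 85 and 89.1 TPM in KO. All 3 KO libraries lay above all wildtype libraries, and the change was 0.60 (SE 0.12, limma adjusted p = 0.0017). The ratio of Men1 to Kmt2a within a library does not depend on scaling. It was 4.55, 4.94 and 5.06 in wildtype and 18.5, 13.2 and 14.1 in KO. Likewise Men1 to Hcfc1 went from 0.817 ± 0.0489 to 3.05 ± 0.583. With 3 libraries against 3 the exact two-sided permutation test cannot go below p = 0.1, which both ratios reached. The pairs of genes, here and below, were chosen after values were seen, so these p-values only describe the separation and test nothing further.

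The other enzymes fell by less. Kmt2b (ENSMUSG00000006307.16, chromosome 7 from 30568858 to 30588726) had 17.7, 19.1 and 18.3 TPM in wildtype and 9.55, 12 and 11.6 TPM in KO, a change of −0.69 (limma adjusted p = 0.00086). Setd1b (ENSMUSG00000038384.16, chromosome 5 from 123142193 to 123168629) had 11.5, 12.4 and 11.4 TPM against 6.36, 8.33 and 8.4 TPM, a change of −0.56 (limma adjusted p = 0.012). That call was lost without replicate 1 of KO full medium (−0.45, limma adjusted p = 0.051). Kmt2d (ENSMUSG00000048154.17, chromosome 15 from 98831669 to 98871204) went from 9.35 ± 0.124 to 6.56 ± 1.02 TPM, a change of −0.46 (limma adjusted p = 0.0063). Setd1a (ENSMUSG00000042308.14, chromosome 7 from 127776670 to 127800122) went from 35.5 ± 1.9 to 28.3 ± 1.52 TPM, a change of −0.32 (limma adjusted p = 0.0066). In each of these 4 genes the 2 groups did not overlap.

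Kmt2c (ENSMUSG00000038056.15, chromosome 5 from 25271798 to 25498783) had 4.04, 3.94 and 3.92 TPM in wildtype and 2.38, 3.97 and 3.73 TPM in KO. Its groups overlapped, and only replicate 1 of KO was clearly low (−0.21, 95% confidence interval −0.55 to 0.14, limma adjusted p = 0.28). Cxxc1 (ENSMUSG00000024560.7, chromosome 18 from 74216124 to 74221496) had 71.3, 76.5 and 73.6 TPM in wildtype and 82.7, 85.5 and 79.5 TPM in KO. The groups did not overlap, but the difference of 0.16 did not pass (limma adjusted p = 0.089). It passed at 0.35 (limma adjusted p = 0.0014) with median-of-ratios scaling, which divides each library by the median ratio of its genes to their mean. The 2 SET1-specific subunits thus moved apart: Cxxc1 to Wdr82 was 1.13, 1.23 and 1.19 in wildtype and 2.72, 2.39 and 2.32 in KO (exact permutation p = 0.1).

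Transcript length moved with these changes. Across 12389 tested genes with an annotated length, Spearman's rho of the change with length was −0.25, a description across genes that share the same 6 libraries. The 507 genes at least as long as the longest Kmt2b transcript had a median change of −0.43. When each library's trend on length was removed, which also removes a shift common to all genes, Hcfc1 was at −0.77, Wdr82 at −0.62 and Kmt2a at −0.41, and these 3 stayed lower (largest limma adjusted p in any setting 0.0021). Men1 stayed higher at 0.80, and Cxxc1 passed at 0.33. Kmt2b at −0.22, Kmt2d at 0.036, Setd1a at 0.12 and Setd1b at −0.083 did not pass, and Kmt2c was higher at 0.29. The count was then 3 higher and 3 lower, where all genes gave 28.3% and 27.2%. Median-of-ratios scaling gave 2 higher and 6 lower, where all genes gave 26.8% and 27.0%. With that scaling Kmt2b (−0.51), Setd1b (−0.39) and Kmt2d (−0.29) were still called lower (largest limma adjusted p = 0.044), whereas Setd1a, at −0.13, was not (limma adjusted p = 0.14).

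**Figure D2:**
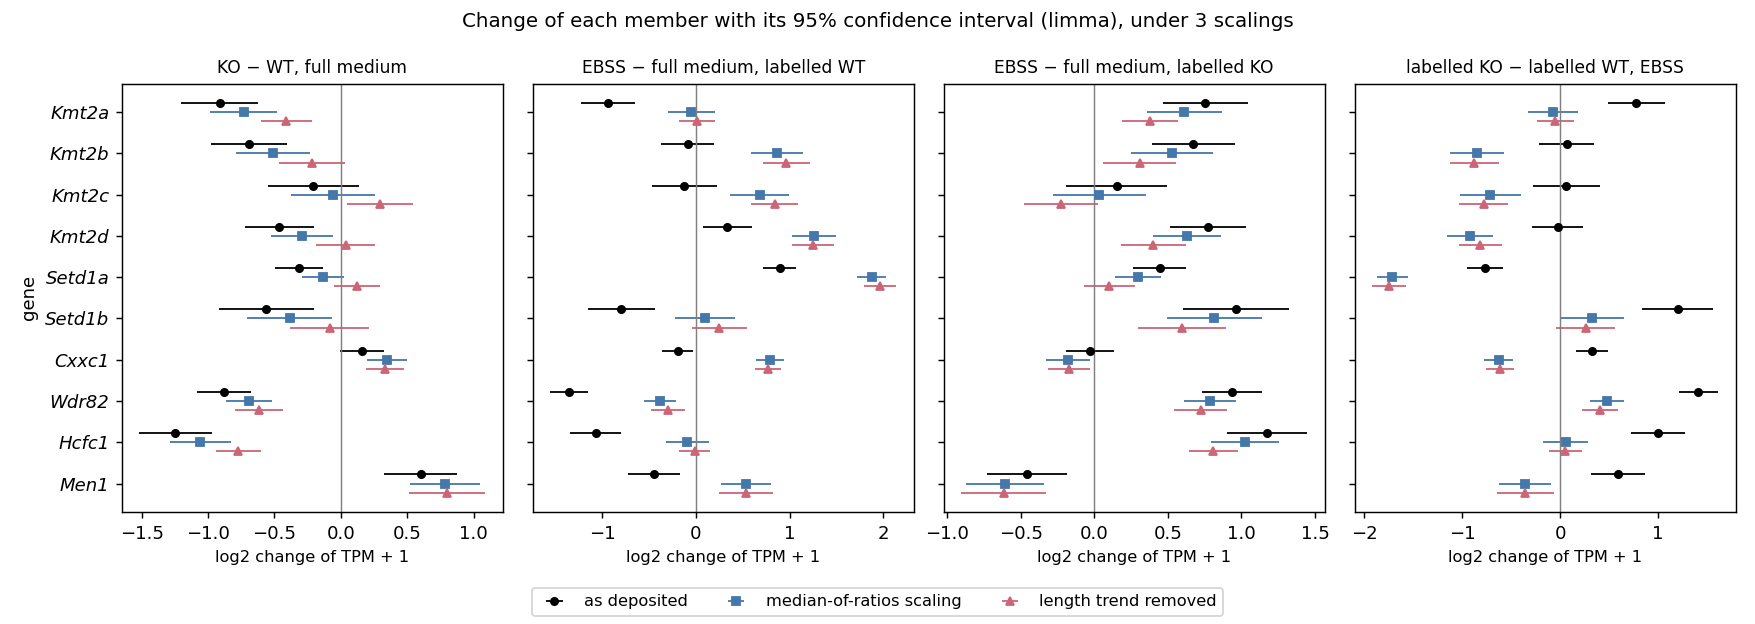
Difference of log2(TPM + 1) for each gene (rows) in 4 comparisons (panels), with limma's 95% confidence interval, as deposited (circles), with median-of-ratios scaling (squares) and with each library's trend on transcript length removed (triangles). In full medium Kmt2a, Wdr82 and Hcfc1 lie left of 0 and Men1 right of 0 under all 3, while in the panels that include labelled wildtype EBSS most genes move by about 1 between scalings.

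EBSS against full medium in cells labelled wildtype asks what starvation does with the gene intact, if the label holds. It shares the wildtype full medium libraries with the comparison above. Setd1a rose while most of the transcriptome was lower on the deposited scale. Its values went from 33.7, 37.5 and 35.2 TPM to 65.4, 63.3 and 72 TPM, with no overlap. The change was 0.89 (SE 0.08, limma adjusted p = 1.4e-06), above 95.2% of tested genes, and ran from 0.84 to 1.97 over all settings, always past the threshold. Wdr82 fell from 62.3 ± 0.629 to 23.8 ± 2.55 TPM, a change of −1.36 (SE 0.09, limma adjusted p = 1.5e-07), and was lower in every setting (−1.43 to −0.30). Together 2 members rose (Setd1a and Kmt2d), 6 fell and 2 did not pass, where limma called 81.1% of all genes, 9.25% higher and 71.8% lower. The groups did not overlap for 9 members and for 84.1% of all genes.

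The median of all genes was −0.94 in this comparison and that of the members −0.32. Median-of-ratios scaling moved the former to −0.1 and the latter to 0.61, and then 6 members were higher and 1 lower (all genes 30.3% and 35.7%). Hence the falls of Hcfc1 (−1.07), Kmt2a (−0.94) and Setd1b (−0.80) are of the size of the general shift, at −0.092, −0.048 and 0.10 after scaling. Cxxc1 (−0.19) and Men1 (−0.45) turned to 0.79 and 0.53, and Kmt2b and Kmt2c, which had not passed, were higher at 0.87 and 0.68. Kmt2d rose from 9.35 ± 0.124 to 12.1 ± 0.8 TPM (0.34, limma adjusted p = 0.021). That call was lost without replicate 1, 2 or 3 of wildtype full medium (limma adjusted p = 0.06, 0.05025 and 0.058), but with scaling the change was 1.26. Cxxc1 lost its call without replicate 2 or 3 of wildtype full medium or replicate 1 of labelled wildtype EBSS (limma adjusted p = 0.1, 0.07 and 0.11). The ribosomal protein share and Rn45s were high in the same 3 libraries, and their part in these changes was not tested.

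Ratios within a library show the same shift in make-up without any scaling. Setd1a to Setd1b was 2.93, 3.03 and 3.09 in wildtype full medium and 10.2, 8.75 and 13.1 in labelled wildtype EBSS. It was 4.21, 3.58 and 3.38 in KO full medium and 1.98, 2.66 and 2.8 in labelled KO EBSS, so that only labelled wildtype EBSS stood far above the other 9 libraries. Kmt2a to Kmt2b was 0.63 ± 0.019, 0.517 ± 0.0422, 0.325 ± 0.0462 and 0.567 ± 0.0139 in wildtype full medium, KO full medium, labelled wildtype EBSS and labelled KO EBSS. Kmt2d to Kmt2c was 2.36 ± 0.061, 2 ± 0.325, 3.4 ± 0.364 and 3.16 ± 0.431 in the same order. For that pair the KO and wildtype libraries in full medium overlapped (exact permutation p = 0.2), as did the EBSS groups (exact permutation p = 0.5). The Setd1a to Setd1b and Kmt2a to Kmt2b ratios reached the smallest p, 0.1, in all 6 pairs of groups.

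**Figure D3:**
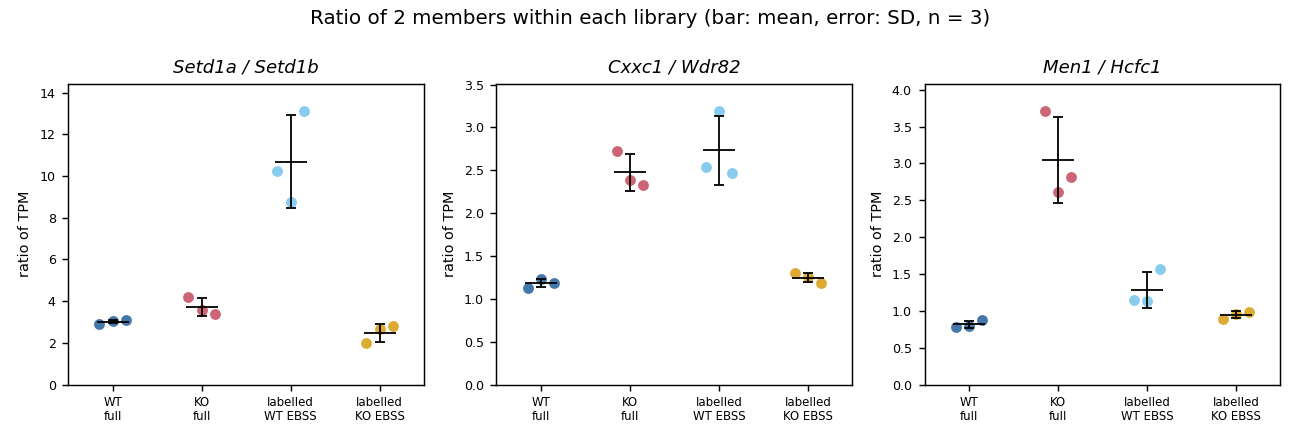
Ratio of TPM of 2 genes within each library, by group (WT is wildtype), with points for libraries, the long bar for the mean and the error bar for the SD of 3. Setd1a to Setd1b is highest in labelled wildtype EBSS (8.75 to 13.1), Cxxc1 to Wdr82 is high there and in KO full medium (2.32 to 3.19 over these 6 libraries), and Men1 to Hcfc1 is highest in KO full medium (2.62 to 3.71).

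Summed over the 6 enzymes, the level was 90.5 ± 3.39 TPM in wildtype full medium, 62.7 ± 6.76 in KO full medium, 112 ± 2.07 in labelled wildtype EBSS and 98.9 ± 4.57 in labelled KO EBSS. These sums depend on the scale: with median-of-ratios scaling they were 72.8 ± 3.01, 57.3 ± 3.44, 180 ± 3.92 and 81.7 ± 1.66 in the same order. The shares of the sum do not. Setd1a made up 39.2% ± 0.683 of the sum in wildtype full medium, 45.3% ± 2.77 in KO full medium, 59.8% ± 3.23 in labelled wildtype EBSS and 39.3% ± 0.942 in labelled KO EBSS. Kmt2a made up 12.8% ± 0.308, 9.1% ± 0.868, 4.99% ± 0.232 and 10.4% ± 0.485 in the same order. Setd1b had 13% ± 0.228, 12.2% ± 0.712, 5.7% ± 0.84 and 16.2% ± 2.72, so that its share in labelled wildtype EBSS lay below every other library. Kmt2d kept to between 9.91% and 12.4% in all 12 libraries.

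**Figure D4:**
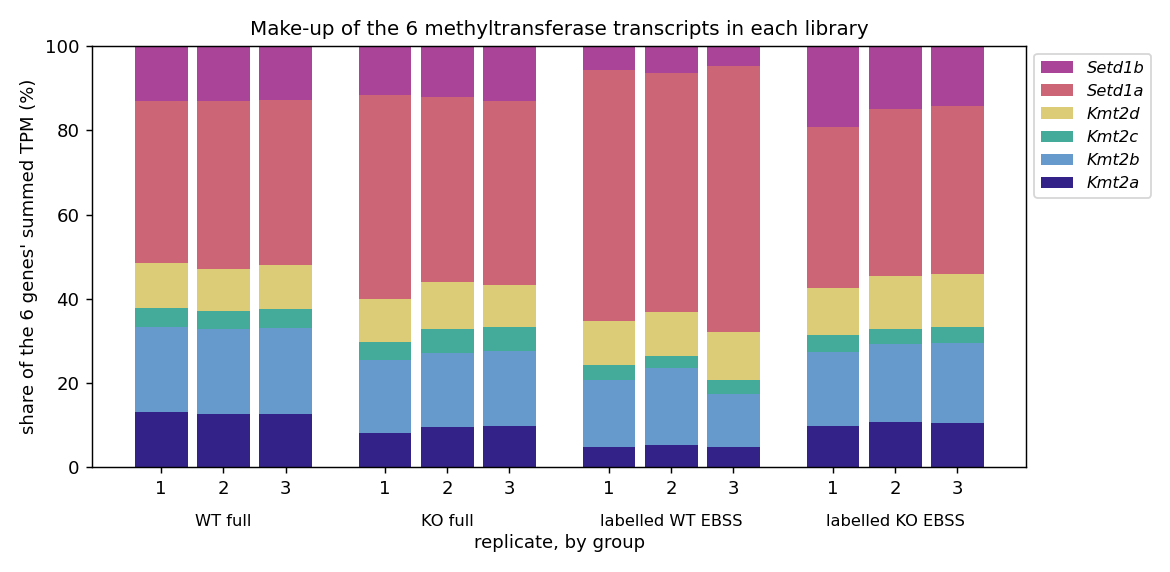
Share of each methyltransferase gene in the summed TPM of the 6 genes (stacked to 100%), one bar per library, grouped by condition (WT is wildtype). Setd1a takes 56.7% to 63.1% in the 3 labelled wildtype EBSS libraries and 38.2% to 48.5% in the other 9.

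EBSS against full medium in cells labelled KO showed the opposite balance on the deposited scale only, again under a label in doubt. Rbbp5 itself was higher by 1.54 in EBSS here, so medium and genotype cannot be told apart in this comparison. Of the 10 members 7 were higher, 1 (Men1) was lower and 2 (Kmt2c and Cxxc1) did not pass, where limma called 54.2% of all genes, 33.3% higher and 20.9% lower, and 8 members against 67.9% of all genes had groups that did not overlap. Hcfc1 went from 22.3, 32.5 and 31.6 TPM to 65.4, 67 and 63.8 TPM (1.17, SE 0.12, limma adjusted p = 1.5e-05). Setd1b went from 6.36, 8.33 and 8.4 TPM to 19.9, 14.8 and 13.4 TPM (0.96, limma adjusted p = 0.00047), with replicate 1 the highest. Wdr82 rose by 0.94, Kmt2d by 0.77, Kmt2a by 0.76, Kmt2b by 0.67 and Setd1a by 0.44. Men1 fell by 0.46, from 85.6 ± 3.3 to 62 ± 3.34 TPM (limma adjusted p = 0.0091). Of these 8 calls, 7 held in every setting; Setd1a, at 0.10, did not pass with the length trend removed. With median-of-ratios scaling 7 were higher and 2 lower, Cxxc1 being added at −0.18 (all genes 26.0% and 26.2%). The same scaling gave 6 higher and 1 lower in labelled wildtype, so the balance was then not opposite.

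Against wildtype full medium, labelled KO EBSS gave 0 calls among the 10 members by limma, and 0.134% of all genes (0.0869% higher and 0.0474% lower). Limma's p before adjustment was under 0.05 for Kmt2d (0.31) and Setd1b (0.40). With library weights limma called Kmt2d (0.30), Setd1b (0.21), Men1 (0.15) and, lower, Kmt2a (−0.18). Shares of all genes under these other rules were not computed, so these calls cannot be set beside the 0.134%. The groups did not overlap for 6 of the 10 members and for 38.4% of all genes. The 95% confidence intervals bound the differences: −0.45 to 0.13 for Kmt2a, −0.34 to 0.20 for Hcfc1, −0.15 to 0.26 for Wdr82, −0.13 to 0.42 for Men1 and 0.04 to 0.76 for Setd1b. Hcfc1, for example, had 65.4, 67 and 63.8 TPM in labelled KO EBSS and 67.5, 73.2 and 65.7 TPM in wildtype full medium. Rbbp5 also overlapped between these 2 groups.

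Within EBSS, 6 members were higher in the libraries labelled KO, 1 was lower (Setd1a) and 3 did not pass (Kmt2b, Kmt2c and Kmt2d), where limma called 80.5% of all genes, 71.9% higher and 8.58% lower, and 7 members against 78.2% of all genes had groups that did not overlap. Wdr82 differed most, at 65.5, 64.3 and 64.5 TPM against 23.7, 21.3 and 26.4 TPM (1.41, SE 0.09, limma adjusted p = 1.3e-07). Setd1b was higher by 1.20, Hcfc1 by 1.00, Kmt2a by 0.78, Men1 by 0.59 and Cxxc1 by 0.32. Setd1a was at 39.5, 39.3 and 37.7 TPM against 65.4, 63.3 and 72 TPM (−0.77, SE 0.08, limma adjusted p = 5.2e-06). The median of all genes was 0.91 here. With median-of-ratios scaling 1 member was higher and 6 were lower (all genes 34.8% and 29.0%). Wdr82 stayed higher at 0.48 and Setd1a lower at −1.71, and both held in every setting, while Kmt2a, Cxxc1 and Men1 turned to −0.071, −0.63 and −0.35. Hcfc1 and Setd1b were at 0.059 and 0.33 and did not pass.

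Labelled wildtype EBSS and KO full medium were the 2 groups with low Rbbp5 on the deposited scale. Even there Rbbp5 was higher in labelled wildtype EBSS, by 0.55 (limma adjusted p = 0.0026). With median-of-ratios scaling it was higher by 1.31 (limma adjusted p = 2.6e-06). Against KO full medium, labelled wildtype EBSS had 3 members higher and 3 lower (all genes 75.1% in all, 11.6% higher and 63.5% lower). The groups did not overlap for 6 members and for 75.8% of all genes. Setd1a was higher by 1.21 (limma adjusted p = 2e-07), Kmt2d by 0.80 and Kmt2b by 0.61, in every setting. Men1 was lower by the most, at 36.4, 36.1 and 51.7 TPM against 82.6, 85 and 89.1 TPM (−1.05, limma adjusted p = 1.4e-05), but at −0.25 with median-of-ratios scaling it did not pass (limma adjusted p = 0.088). Wdr82 (−0.48) and Cxxc1 (−0.35) turned to 0.31 and 0.45 with that scaling, under which 9 members were higher and 0 lower (all genes 29.5% and 33.7%). Hcfc1 and Kmt2a, low in both groups on the deposited scale only, were at 0.17 and −0.02 on it and at 0.97 and 0.68 after scaling. Scaled means of Hcfc1 were 51.8 in labelled wildtype EBSS, 26.2 in KO full medium and 55.3 in wildtype full medium. Those of Kmt2a were 8.97, 5.23 and 9.31 in the same order.

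The interaction tests whether the genotype difference in EBSS differs from that in full medium, and it shares all 4 groups with the comparisons above. It was positive for 6 members, negative for Setd1a and not past the threshold for Kmt2c, Cxxc1 and Men1, where limma called 76.7% of all genes, 64.2% positive and 12.5% negative. Wdr82 was at 2.29 (SE 0.13, limma adjusted p = 4.6e-08), Hcfc1 at 2.25 (SE 0.18, limma adjusted p = 4.9e-07), Setd1b at 1.76 and Kmt2a at 1.69. The median of all genes was 1.06 as deposited and 0.05 with median-of-ratios scaling, under which Wdr82 and Hcfc1 stood at 1.17 and 1.12, Setd1b and Kmt2a at 0.72 and 0.66, and Setd1a at −1.58. That scaling gave 4 positive and 5 negative members (all genes 34.1% and 32.8%). The interaction of Kmt2d (0.44, limma adjusted p = 0.033) was lost when any of 9 single libraries was left out and was at −0.63 with median-of-ratios scaling.

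Other genes of the pathway were counted from fixed lists. The shares of all tested genes to set beside the counts in full medium are 20.1% higher and 35.8% lower. In the shared core, Rbbp5 fell in KO in full medium by 1.53, whereas Dpy30 rose by 1.25 and Ash2l by 0.37, and Wdr5 did not pass. Of 11 other partners, 2 rose and 4 fell in that comparison. Tasp1, the protease that cleaves KMT2A and KMT2B, was at −1.28, Ogt, the glycosyltransferase that processes HCFC1, at −1.20, and Kmt2e at −0.80, while Hcfc2, a relative of Hcfc1, rose by 1.01. Of 5 H3K4 demethylases 0 rose and 2 fell, Kdm5b (−0.70) and Kdm5c (−0.43). Of 22 other histone lysine methyltransferases 1 rose (Smyd3, 0.98) and 13 fell, led by Nsd1 (−1.16), Setd5 (−1.14) and Suv39h1 (−0.98). Their median was −0.51, like that of the 10 members. With median-of-ratios scaling the counts were 2 and 1, 2 and 3, 0 and 2, and 4 and 10, where all genes gave 26.8% and 27.0%.

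In EBSS against full medium in labelled wildtype, where 9.25% of all tested genes were called higher and 71.8% lower, 0 of 4 core genes rose and 4 fell, and of the 11 partners 0 rose and 9 fell, led by Tasp1 (−2.13) and Pagr1a (−1.97). Of the demethylases 0 rose and 3 fell, led by Kdm1b (−1.91), and of the other methyltransferases 2 rose and 17 fell, led by Setdb2 (−2.15) and Suv39h1 (−2.09). With median-of-ratios scaling these counts became 1 and 0, 4 and 3, 4 and 1, and 7 and 10, where all genes gave 30.3% and 35.7%. In labelled KO, where all genes gave 33.3% higher and 20.9% lower, 1 core gene rose and 1 fell (Rbbp5 1.54, Dpy30 −1.24), as did 3 and 2 partners, 2 and 1 demethylases and 13 and 3 other methyltransferases. Between labelled KO EBSS and wildtype full medium limma called 0 genes of these 4 lists, where it called 0.134% of all tested genes.

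Genes whose levels followed a member most closely were ranked by Pearson's r of log2(TPM + 1) over the 12 libraries, which fall into 4 groups and share their scaling. The 2 nearest were Insr and Nid2 for Kmt2a (r = 0.995 and 0.989), Cers4 and Fam189b for Kmt2b (0.981 and 0.978), Bptf and Rev1 for Kmt2c (0.891 and 0.87) and Ptbp1 and Mllt6 for Kmt2d (0.969 and 0.959). They were Hexim1 and Chkb for Setd1a (0.989 and 0.988), Kat6b and Qrich1 for Setd1b (0.989 and 0.981) and Cherp and Ubald2 for Cxxc1 (0.978 and 0.963). For Wdr82 they were Magohb and Chsy1 (0.997 and 0.996), for Hcfc1 Csnk1g1 and Prrx1 (0.991 and 0.989) and for Men1 Chmp2a and Adamtsl4 (both 0.987). With median-of-ratios scaling Nid2 with Kmt2a came to 0.723 and Ubald2 with Cxxc1 to 0.395, and the other 18 pairs lay at 0.88 or above. Among the members, Kmt2a and Hcfc1 were closest, at 0.986 as deposited and 0.984 after scaling. Men1 and Wdr82 were at 0.288 as deposited and at −0.81 after scaling, and Setd1a and Cxxc1 at −0.82 and 0.865.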

How the data were processed

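The authors deposited one table of TPM per gene symbol for all 12 libraries. Per the submitters' processing notes, Salmon and the mm10 build were used; which annotation was used is not stated, and depth is unknown. TPM keeps no counts, so no counting interval is given. Per the labels' protocols, DNase-treated RNA went into an Illumina TruSeq kit. Groups and replicate numbers came from sample titles.

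TPM was transformed to log2(TPM + 1), and one limma 3.58.1 model (R 4.3.3) with 4 group means, moderated variances and a variance trend was fitted to 12653 genes with at least 1 TPM in at least 3 libraries. P-values are two-sided, Benjamini-Hochberg adjusted, with a threshold of 0.05. The procedure was tested on simulated data. Gene positions and transcript lengths were read from GENCODE vM21 (GRCm38, as mm10), which matched 97.9% of tested symbols and all 10 members. Promoter sequences are RefSeq's (GRCm38.p6). Figures used matplotlib 3.10.9 (Python 3.11.15).

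The members, gene lists and tests were chosen with earlier results of these data known. Named genes are all members, up to 4 called genes per list with the largest change, Rbbp5, and for each member the 2 most correlated genes with a mean of at least 5 TPM, without predicted and ribosomal protein genes. The ratios, sums and shares of members and the promoters shown were chosen after values were seen. Alternatives were other pseudocounts, filters, scalings, a length correction, variance models, library weights, a replicate block and leaving out each library; the length correction with median-of-ratios scaling was added after seeing the data.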

Additional observations from a re-analysis of the deposited data

Results flagged for a closer look

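For 7 of the 10 genes the difference between labelled KO and labelled wildtype was not the same in EBSS as in full medium by limma's interaction test, with all 12 libraries in the fit. The interaction, as a difference of log2 changes, was 2.29 for Wdr82, 2.25 for Hcfc1, 1.76 for Setd1b, 1.69 for Kmt2a, 0.76 for Kmt2b and 0.44 for Kmt2d, and −0.45 for Setd1a (limma adjusted p from 4.6e-08 to 0.033). Over all tested genes 76.7% passed the same test. The EBSS labels behind this test are in doubt, as described above. Wdr82, Hcfc1 and Setd1a passed in the same direction in every setting that gives an interaction. Setd1b and Kmt2a kept their sign but not their call in every setting. Setd1b was at 0.34 with the length trend removed (limma adjusted p = 0.13). Kmt2a went down to 0.21 over the settings (largest limma adjusted p = 0.21). Kmt2b turned to −0.34 with median-of-ratios scaling (not past the threshold) and to −0.66 with the length trend removed (past it). Kmt2d turned to −0.63 and −0.85, both past the threshold, and its call at 0.44 was lost without any 1 of 9 libraries.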

How the results depend on the processing

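The 70 values (10 genes in 7 comparisons) were recomputed under 25 settings, 12 of which leave out a library. A fit of only the libraries compared gives no interaction, and Kmt2c has no value with a mean of at least 5 TPM, which it does not reach. Of 44 calls, 21 kept direction and threshold in every setting that gives them a value, and 13 changed sign in at least one. Scalings and the length correction gave 79 of 97 changes of sign. Depth is unknown, so the precision of low values such as Kmt2c could not be given.

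Counts of called members stayed within 1.5 times of the main count except in the following cases. Labelled wildtype EBSS against KO full medium had 10 against 6 with quantile normalization. Labelled KO EBSS against wildtype full medium had 4 against 0 with library weights. KO against wildtype in full medium had 5 against 8 with scaling and length correction together, a setting added after seeing the data. Shares of all genes called under these settings were not computed, so these counts have no background beside them.

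The replicate block changed no call of a member (8 in full medium, as without it). It lowered the calls over all genes for labelled KO EBSS against wildtype full medium from 17 to 7 and left the other comparisons at 6702 to 10191 calls, against 6861 to 10260. Same-numbered libraries did not deviate together (r from −0.073 to 0.079), so the numbers were not taken as a pairing.

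Changes of sign were as follows (log2 changes, limma); the cause was not tested. EBSS against full medium, labelled wildtype: with median-of-ratios scaling Kmt2b 0.87, Kmt2c 0.68, Setd1b 0.10, Cxxc1 0.79 and Men1 0.53, with quantile normalization Kmt2a 0.19, Kmt2b 0.93, Kmt2c 1.06, Setd1b 0.33, Cxxc1 0.49 and Men1 0.35, without ribosomal protein genes Kmt2b 0.34, Kmt2c 0.25 and Cxxc1 0.25, with the length trend removed Kmt2a 0.013, Kmt2b 0.97, Kmt2c 0.84, Setd1b 0.25, Cxxc1 0.77 and Men1 0.54.

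Labelled KO against labelled wildtype, EBSS: with median-of-ratios scaling Kmt2a −0.071, Kmt2b −0.85, Kmt2c −0.71, Cxxc1 −0.63 and Men1 −0.35, with quantile normalization Kmt2a −0.31, Kmt2b −0.90, Kmt2c −1.09, Cxxc1 −0.34 and Men1 −0.19, without ribosomal protein genes Kmt2b −0.36, Kmt2c −0.30 and Cxxc1 −0.11, with the length trend removed Kmt2a −0.047, Kmt2b −0.88, Kmt2c −0.78, Cxxc1 −0.61 and Men1 −0.35, and with library weights Kmt2c −0.046 and Kmt2d 0.014.

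Labelled wildtype EBSS against KO full medium: with median-of-ratios scaling Kmt2a 0.68, Setd1b 0.48, Cxxc1 0.45 and Wdr82 0.31, with quantile normalization Kmt2a 0.72, Setd1b 0.54, Cxxc1 0.30 and Wdr82 0.28, without ribosomal protein genes Kmt2a 0.33, Setd1b 0.11 and Cxxc1 0.034, with the length trend removed Kmt2a 0.42, Setd1b 0.33, Cxxc1 0.44 and Wdr82 0.32.

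Interaction: with median-of-ratios scaling Kmt2b −0.34, Kmt2c −0.65, Kmt2d −0.63 and Cxxc1 −0.97, with quantile normalization Kmt2b −0.51, Kmt2c −1.35, Kmt2d −0.98 and Cxxc1 −0.53, without ribosomal protein genes Kmt2c −0.13, Kmt2d −0.019 and Cxxc1 −0.33, with the length trend removed Kmt2b −0.66, Kmt2c −1.07, Kmt2d −0.85 and Cxxc1 −0.94, and with library weights Men1 0.15.

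In full medium Kmt2c was at 0.26 with quantile normalization, and with the length trend removed Kmt2c was at 0.29, Kmt2d at 0.036 and Setd1a at 0.12. In EBSS against full medium, labelled KO, Kmt2c was at −0.30 with quantile normalization, −0.23 with the length trend removed and −0.033 with library weights. In labelled KO EBSS against wildtype full medium Kmt2b was at 0.018 with median-of-ratios scaling, 0.031 with quantile normalization and 0.091 with the length trend removed, where Kmt2c was at 0.066 and Hcfc1 at 0.038.

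Leaving out 1 library turned the sign of 10 values that had not passed. They ranged from −0.068 to 0.0044 for Cxxc1 and −0.023 to 0.26 for Kmt2c in EBSS against full medium, labelled KO, and from −0.20 to 0.031 for Kmt2b in labelled wildtype. Between EBSS groups they ranged from −0.049 to 0.18 for Kmt2b, −0.0082 to 0.11 for Kmt2c and −0.056 to 0.025 for Kmt2d. In labelled wildtype EBSS against KO full medium they ranged from −0.17 to 0.056 for Kmt2a and −0.088 to 0.19 for Kmt2c. Kmt2b in labelled KO EBSS against wildtype full medium ranged from −0.044 to 0.0080 and the interaction of Men1 from −0.097 to 0.16.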
